A study of Mus musculus with 28 samples.

Results

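The genes described here are 36 mouse genes of glucose uptake, glycolysis and lactate handling: 2 glucose transporters, the enzymes of the pathway from hexokinase to lactate dehydrogenase with their isozymes and the enzymes that regulate it or branch from it, 2 monocarboxylate transporters, 3 pyruvate dehydrogenase kinases and 2 pyruvate dehydrogenase subunits. They were taken from a list of names, not by any measured value, and each is represented by the brightest of its array probes. All 36 were well above background on at least 3 of 28 arrays, the filter that kept 19437 genes in all. The arrays are 1-colour Agilent whole-genome arrays of RNA from T cells of BALB/c mice, sorted as CD4 or CD8 cells; young animals were 4 months old and old ones 20 months. Cells were taken without stimulation (0 h) or 4, 12, 24 or 72 h after anti-CD3 and anti-CD28, antibodies that stand in for the antigen receptor signal and its costimulation. Each age and cell type has 3 arrays at 0 h and a single array at each later time, giving 20 groups. The labels name no genetic modification.

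Several points limit these groups as a model. The source names call every sample naive, while the sample titles give low CD62L and high CD44. The labels also disagree on the CD44 gate: the sample titles and growth protocol give high CD44 and the descriptions give low CD44. Whether the cells were of a memory or a naive type is therefore not settled here. The series text says that RNA was pooled from 4 separate sortings, and nothing says that the 3 arrays at 0 h come from different animals, so p-values may measure technical spread only. In a bulk sample, more RNA of a gene per cell and more cells that express it cannot be told apart. The arrays lie on 13 slides; each stimulated time has slides of its own, so slide and time cannot be told apart, and the CD4 arrays at 12, 24 and 72 h had the widest spread between repeated spots (coefficient of variation 14.5% to 21.6%, against 3.73% to 8.06% on the other arrays) and 75th percentile intensities of 121 to 275. All stimulated CD4 arrays and the third 0 h CD4 array of each age were read on scanner model G2505B. The remaining CD4 arrays at 0 h and all CD8 arrays were read on model G2505C, with another software version. The change from 0 h in CD4 cells, and its difference from that in CD8 cells, cannot be fully told apart from scanner and version. The lineage markers followed the labels: Cd8a was 9.21 and Cd8b1 5.79 higher on the log2 scale in CD8 than in CD4 cells at 0 h, and Cd4 differed by -2.97. Levels below are log2 processed spot intensity minus the 75th percentile of the same array, so 0 is that percentile, and differences are in log2 units, given with the standard error of a limma fit. A level after stimulation enters a test as the mean of the young and the old array, 2 against 6 at 0 h. Where a spot of one age was missing, the other array stands alone and is assumed to vary like the other groups. On such a lone array rest 6 member calls, 1 at 12 h, 2 at 24 h and 3 at 72 h, all in CD4 cells. A gene is called where its Benjamini-Hochberg adjusted p, over all genes tested, is under 0.05.

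Glycolysis splits glucose into pyruvate, which either enters mitochondria as acetyl-CoA through pyruvate dehydrogenase or is reduced to lactate and leaves the cell with a proton through monocarboxylate transporters. Resting T cells use little glucose; on activation they take up more of it and export lactate, a pattern known as aerobic glycolysis. Myc and the hypoxia-inducible factor HIF-1 are textbook activators of many of these genes.

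Stimulation was followed by higher RNA of most of the pathway. No member was called in opposite directions in CD4 and CD8 cells at any time, but the matching share over all genes was not computed. In CD4 cells 9 members rose and 9 fell at 4 h against 0 h, beside 32.1% of all genes called (15.7% higher and 16.4% lower). At 12 h 19 rose and 2 fell, beside 40.6% of all genes (24.2% higher and 16.4% lower). At 24 h 24 rose and 1 fell of 35 tested, beside 44.7% (25.1% higher and 19.6% lower), and at 72 h 24 rose and 3 fell, beside 39.1% (22.2% higher and 16.9% lower). In CD8 cells 5 rose and 7 fell at 4 h, beside 27.3% of all genes called (14.3% higher and 13% lower). At 12 h 16 rose and 1 fell, beside 30.2% (16% higher and 14.2% lower). At 24 h 23 rose and 3 fell, beside 33.2% (16.1% higher and 17.1% lower), and at 72 h 25 rose and 3 fell, beside 28% (13.6% higher and 14.4% lower). At 4 h the calls were thus split between directions and the share in CD8 cells was near the background, while from 12 h nearly all calls were increases. The 4 h counts rest on few arrays: 18 members called in CD4 cells became 7 without the old 4 h array, and 12 in CD8 cells became 5 without the old and 4 without the young 4 h array. With slide as a random block the 4 h counts were 7 and 5. The CD8 count of 26 at 24 h became 15 without the young 24 h array. Quantile normalization gave 7 higher and 13 lower at 4 h in CD4 cells and 4 and 11 in CD8 cells, 18 and 5 at 12 h in CD4 cells, and median scaling 4 and 3 at 4 h in CD8 cells; no called member changed sign under either. The authors' deposited value table sets other arrays in the place of the CD8 arrays at 4, 12 and 24 h. With those times 26 members were called at 12 h and 12 at 24 h in CD8 cells. In that setting 10 of the members called at 24 h and 3 of those called at 4 h changed sign. Other probes of the same genes were available for 17 of the members with a called value: of 174 comparisons of a called value with another probe, 28 had the opposite sign, over 10 genes, and 3 of these 28 were called themselves. The members' median difference was -0.04 at 4 h, 0.94 at 12 h, 1.46 at 24 h and 2.30 at 72 h in CD4 cells, beside -0.07, 0.26, 0.07 and 0.21 over all genes. In CD8 cells it was -0.24, 0.87, 1.33 and 1.33, beside 0.08, 0.01, -0.10 and 0.01.

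The calls overlapped between the cell types, which have no array in common, as did those of all genes. Of the members called higher, 4 were shared at 4 h (of 9 in CD4 and 5 in CD8 cells), 13 at 12 h (of 19 and 16), 19 at 24 h (of 24 and 23) and 22 at 72 h (of 24 and 25). Of those called lower, 6 were shared at 4 h (of 9 and 7), 1 at 12 h (of 2 and 1), 1 at 24 h (of 1 and 3) and 3 at 72 h (of 3 and 3). Among all genes, those called higher in both were 67.8% of the CD4 calls and 74.8% of the CD8 calls at 4 h and 55.2% and 84% at 12 h. They were 52.8% and 83.1% at 24 h and 42.8% and 70.4% at 72 h. Those called lower in both were 62.1% and 78.1%, 53.7% and 62%, 56.7% and 64.9% and 48.5% and 56.8%. For calls higher, the shared members' part of the CD8 calls was thus near that of all genes at 4, 12 and 24 h and above it at 72 h. Their part of the CD4 calls was below that of all genes at 4 h and above it from 12 h. Hk2, Pfkp, Pgam1 and Slc16a1 were called higher at every time tested in both cell types. Hk3, Pfkfb2, Pfkfb4, Bpgm and Ldhb were called lower at some time and higher at none, and Pdk2 and Pdhb were called at no time in either direction.

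**Figure D1:**
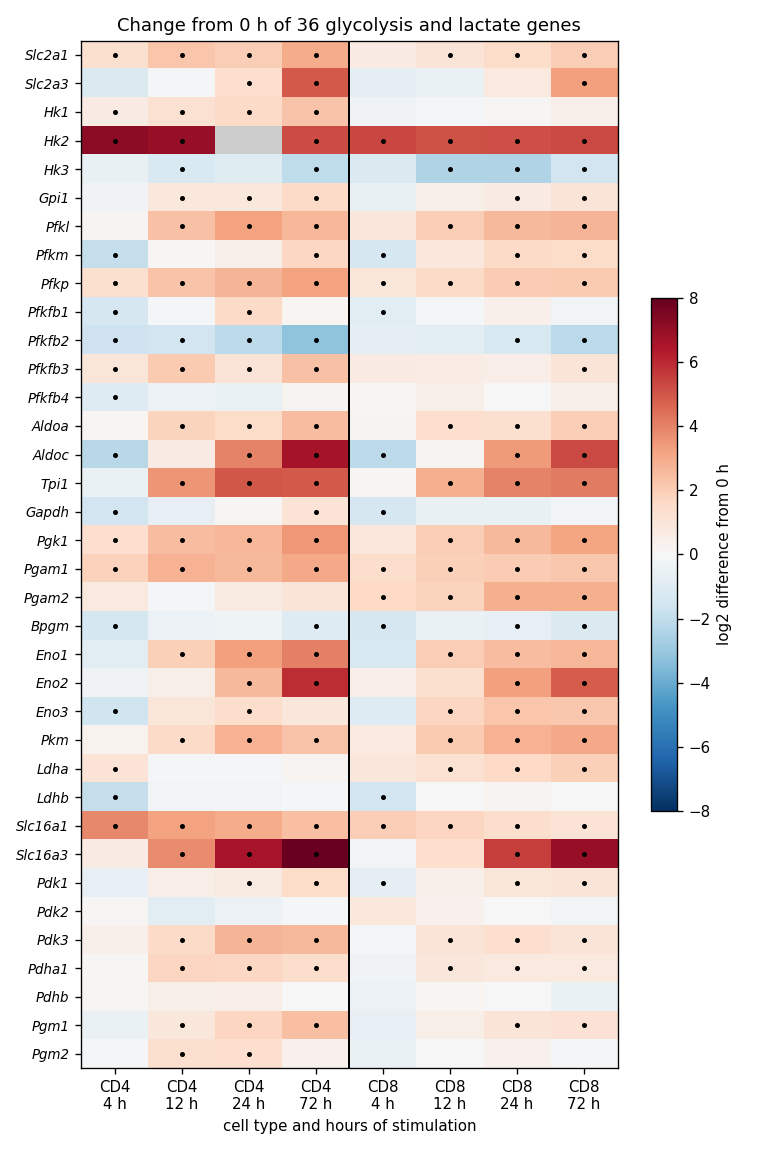
Log2 difference from 0 h (colour) for the 36 genes (rows, by role) at 4, 12, 24 and 72 h in CD4 and CD8 cells (columns); a dot stands for an adjusted p under 0.05, and the grey cell is Hk2 in CD4 cells at 24 h, where both spots were missing. Increases fill the 72 h columns, where 24 members rose in CD4 and 25 in CD8 cells, and the 4 h columns are mixed.

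The promoter windows of the members were searched for the core letters of the sites that HIF-1 (ACGTG or GCGTG) and Myc (CACGTG, which contains ACGTG) are known to bind, on both strands of the 250 bases before each RefSeq start in GRCm38.p6. RefSeq windows were matched for 35 of the 36 genes (54 windows); Slc2a3 was not matched. ACGTG lay in 40.7% of the members' windows and 16.6% of all 32851 windows, GCGTG in 48.1% and 28.2%, and CACGTG in 11.1% and 6.02%. The members' windows were also richer in G and C, with a median of 59% against 52.4%. A match is a string of letters and not a shown binding site. The 5 windows printed here are those of genes described below: both lactate transporters, the hexokinase with the largest rise, the lactate dehydrogenase gene with the most ACGTG matches of the 5, and an enolase gene that rose late and has no match. Capitals mark the searched letters on either strand.
Slc16a3, chr11:120948817-120949066, strand +: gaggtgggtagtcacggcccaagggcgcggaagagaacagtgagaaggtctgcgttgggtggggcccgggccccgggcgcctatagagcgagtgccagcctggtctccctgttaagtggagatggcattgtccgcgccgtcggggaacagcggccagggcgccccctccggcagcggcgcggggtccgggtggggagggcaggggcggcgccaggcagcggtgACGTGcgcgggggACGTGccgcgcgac
Slc16a1, chr3:104638414-104638663, strand +: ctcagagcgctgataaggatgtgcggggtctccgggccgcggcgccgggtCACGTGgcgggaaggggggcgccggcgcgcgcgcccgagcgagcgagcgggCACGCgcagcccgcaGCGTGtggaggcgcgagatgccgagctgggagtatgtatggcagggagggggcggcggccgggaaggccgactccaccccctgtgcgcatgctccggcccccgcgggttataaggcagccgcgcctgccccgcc
Hk2, chr6:82774455-82774704, strand -: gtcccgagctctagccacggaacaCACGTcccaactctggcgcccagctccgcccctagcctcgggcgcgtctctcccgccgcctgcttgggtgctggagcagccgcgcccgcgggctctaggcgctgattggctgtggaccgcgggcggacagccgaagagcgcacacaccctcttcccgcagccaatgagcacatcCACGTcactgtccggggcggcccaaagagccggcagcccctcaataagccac
Ldha, chr7:46845554-46845803, strand +: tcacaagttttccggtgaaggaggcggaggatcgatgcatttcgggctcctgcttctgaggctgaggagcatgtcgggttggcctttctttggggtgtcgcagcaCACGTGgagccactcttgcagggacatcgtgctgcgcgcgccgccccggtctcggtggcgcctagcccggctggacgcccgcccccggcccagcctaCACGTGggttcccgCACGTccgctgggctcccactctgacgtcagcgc
Eno2, chr6:124769674-124769923, strand -: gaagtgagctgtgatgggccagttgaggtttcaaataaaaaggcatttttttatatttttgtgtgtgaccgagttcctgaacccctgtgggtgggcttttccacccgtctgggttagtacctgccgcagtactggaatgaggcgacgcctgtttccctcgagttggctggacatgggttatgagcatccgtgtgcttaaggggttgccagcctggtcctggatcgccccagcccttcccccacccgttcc
The Slc16a3 window held ACGTG 2 times, the Hk2 window 2 times and the printed Ldha window 5 times, counting both strands of its 2 CACGTG. Ldha has a second window, which held ACGTG 0 times and GCGTG 1 time and is not printed. The other 4 genes have 1 window each. The Slc16a1 window held ACGTG 2 times, both within 1 CACGTG, and GCGTG 2 times, and the Eno2 window held none of them.

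Both glucose transporters rose, at different times. Slc2a3, a high-affinity transporter (GLUT3), stood at 2.15 to 2.34 (median 2.25) over the 6 CD4 arrays at 0 h. Its young and old CD4 arrays after stimulation read 1.27 and 0.96 at 4 h, 2.64 and 1.67 at 12 h, 4.61 and 2.57 at 24 h and 7.38 and 6.89 at 72 h. Both 72 h arrays stood well above every other CD4 array, and both 4 h arrays lay below all 0 h arrays. The difference from 0 h was 4.88 ± 0.47, adjusted p = 2.9e-07 at 72 h in CD4 cells, while that at 4 h was -1.14 ± 0.47, adjusted p = 0.073. In a fit over all probes in place of genes, its other probes disagreed at 72 h in CD4 cells, with 3.83 (adjusted p = 0.0032) and 0.28 (adjusted p = 0.82). At 24 h there both were below 0 and not called (-0.45 (adjusted p = 0.74) and -0.22 (adjusted p = 0.85)), where the brightest probe was called (1.33). In CD8 cells Slc2a3 stood at 2.36 to 2.64 (median 2.48) at 0 h and read 1.47 and 1.91 at 4 h, 1.92 and 1.99 at 12 h, 3.75 and 2.79 at 24 h and 7.24 and 4.32 at 72 h, again with the highest values at 72 h and a wide gap between the ages there. Its 72 h difference in CD8 cells was 3.30 ± 0.47, adjusted p = 3.5e-05, and the other probes gave 3.33 (adjusted p = 0.0051) and 1.91 (adjusted p = 0.14). Slc2a1 (GLUT1), the transporter best known for activated T cells, rose at all 4 times in CD4 cells, from 1.26 ± 0.32, adjusted p = 0.0053 at 4 h to 2.99 ± 0.32, adjusted p = 1.1e-06 at 72 h. In CD8 cells it rose from 12 h (1.02 ± 0.32, adjusted p = 0.022) to 1.99 ± 0.32, adjusted p = 0.00013 at 72 h. Its 4 h arrays overlapped the 0 h arrays in CD4 cells.

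Among the hexokinases, which trap glucose as glucose-6-phosphate, Hk2 rose most and early. Hk2, the inducible hexokinase that docks on mitochondria, stood at -3.89 to -0.25 (median -2.38) over the CD4 arrays at 0 h. Its young and old CD4 arrays read 4.50 and 5.04 at 4 h and 4.63 and 4.51 at 12 h, and the young array 2.40 at 72 h. The spots of both 24 h arrays and of the old 72 h array carried outlier marks and are missing, so the CD4 72 h value rests on a single array. The difference from 0 h was 7.13 ± 0.62, adjusted p = 2.8e-07 at 4 h in CD4 cells, a 140.5-fold level. The young and old 0 h CD4 arrays on the scanner model of the 4 h arrays read -1.47 and -0.25. The other young and old 0 h CD4 arrays had means of -3.86 and -2.38. The size of the rise thus depends on which 0 h arrays are used and cannot be fully told apart from scanner and slide. In CD8 cells Hk2 stood at -0.77 to -0.15 (median -0.48) at 0 h and read 5.27 and 4.52 at 4 h, 4.35 and 4.89 at 12 h, 4.62 and 4.77 at 24 h and 5.12 and 4.52 at 72 h. All 8 stimulated CD8 arrays were above all 0 h arrays by a similar margin, with differences between 5.08 and 5.36. Hk1, the constitutive hexokinase, rose in CD4 cells from 0.63 ± 0.23, adjusted p = 0.04 at 4 h to 2.29 ± 0.23, adjusted p = 3.8e-07 at 72 h. The 4 h value was 0.26 without the old 4 h array (adjusted p = 0.61) and -0.0405 in the authors' deposited table. In CD8 cells Hk1 was called at no time, with differences of -0.25, -0.19, 0.09 and 0.42. The probes of Hk1 disagreed: another of them read -0.94 (adjusted p = 0.029) at 12 h in CD4 cells, the opposite direction. At 4 and 12 h none of its other 4 probes was called higher. Hk3, the hexokinase typical of myeloid cells, fell at 12, 24 and 72 h in CD8 cells (-2.39 ± 0.47, adjusted p = 0.0006 at 24 h) and at 12 and 72 h in CD4 cells. Normexp background correction turned the direction of 3 of these 5 calls, to 0.11 at 72 h in CD8 cells and to 0.0720 at 12 h and 0.0762 at 72 h in CD4 cells. The 12 h value in CD8 cells was -1.55 without the old 12 h array (adjusted p = 0.081). Both CD4 arrays at 72 h were not well above background for Hk3, so the size of its 72 h difference in CD4 cells is uncertain. Myeloid markers also varied between arrays. The summed level of 12 of them ranged from 1.48 to 7.92 on the CD4 arrays at 0 h and from -1.06 to 7.15 after stimulation. In CD8 cells it ranged from 2.94 to 7.55 and from -1.25 to 6.17, so the ranges overlapped in both cell types. On the third old and young CD4 arrays at 0 h it was 7.89 and 7.92, where Hk3 read -3.47 and -1.63. The part of these markers in the Hk3 result was not tested.

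Gpi1, which turns glucose-6-phosphate into fructose-6-phosphate, rose from 12 h in CD4 cells and from 24 h in CD8 cells, to 1.50 ± 0.22, adjusted p = 2.6e-05 and 1.04 ± 0.22, adjusted p = 0.0013 at 72 h. Its other probe was called at none of these times: in CD4 cells it read -0.00 (adjusted p = 1) at 12 h, -0.19 (adjusted p = 0.91) at 24 h and 0.62 (adjusted p = 0.7) at 72 h. In CD8 cells it read 1.18 (adjusted p = 0.48) and 1.61 (adjusted p = 0.32) at 24 and 72 h. Without the young 72 h array the CD8 value was 0.56 (adjusted p = 0.16). Pgm1 and Pgm2, which link glycolysis to glycogen and to pentose phosphates, are named here by current RefSeq symbols. Pgm1 rose from 12 h in CD4 cells to 2.43 ± 0.27, adjusted p = 1.4e-06 at 72 h, and from 24 h in CD8 cells to 1.17 ± 0.27, adjusted p = 0.003. The 12 h call in CD4 cells became 0.43 (adjusted p = 0.36) without the young array. The 72 h call in CD8 cells became 0.69 (adjusted p = 0.2) without the young array. Pgm2 rose in CD4 cells at 12 h (1.29 ± 0.35, adjusted p = 0.0059) and 24 h (1.37 ± 0.35, adjusted p = 0.0033) and was not called at 72 h (0.35) or at any time in CD8 cells.

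The 3 phosphofructokinase genes, which encode the committed step of the pathway, all rose by 72 h. Pfkl, the liver-type subunit, stood at -0.16 to 1.23 (median 1.00) over the CD4 arrays at 0 h. Its young and old CD4 arrays read 1.63 and 0.57 at 4 h, 4.14 and 2.21 at 12 h, 4.47 and 3.69 at 24 h and 2.83 and 4.14 at 72 h, all of them above the 0 h arrays from 12 h. The largest difference in CD4 cells was 3.22 ± 0.43, adjusted p = 8.4e-06 at 24 h. In CD8 cells Pfkl stood at 0.86 to 1.25 (median 1.02) and read 2.32 and 1.59 at 4 h, 3.48 and 2.56 at 12 h, 3.81 and 3.41 at 24 h and 4.25 and 3.28 at 72 h, a difference of 2.73 ± 0.43, adjusted p = 0.00011 at 72 h. Pfkp, the platelet-type subunit, stood at 1.70 to 2.12 (median 1.89) over the CD4 arrays at 0 h. It read 2.70 and 3.61 at 4 h, 3.98 and 4.34 at 12 h, 4.76 and 4.37 at 24 h and 5.02 and 5.13 at 72 h on the young and old CD4 arrays, each above all 0 h arrays, and its 72 h difference was 3.20 ± 0.31, adjusted p = 2.7e-07. In CD8 cells Pfkp stood at 1.68 to 2.73 (median 2.38) and read 3.06 and 3.41 at 4 h, 3.94 and 3.57 at 12 h, 4.64 and 3.96 at 24 h and 4.80 and 3.83 at 72 h, with a 72 h difference of 2.06 ± 0.31, adjusted p = 5.3e-05. Of its other probes, one rose as well at 72 h (2.75 (adjusted p = 3e-06) in CD4 and 1.02 (adjusted p = 0.025) in CD8 cells). The other was not called (0.20 (adjusted p = 0.77) and 0.20 (adjusted p = 0.79)). At 24 h neither was called in either cell type. Pfkm, the muscle-type subunit, first fell and later rose: at 4 h the difference was -1.93 ± 0.48, adjusted p = 0.0042 in CD4 and -1.32 ± 0.48, adjusted p = 0.047 in CD8 cells, and at 72 h 1.66 ± 0.48, adjusted p = 0.01 and 1.50 ± 0.48, adjusted p = 0.025. The CD4 value at 72 h was 0.91 (adjusted p = 0.31) without the old 72 h array.

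The 4 genes of 6-phosphofructo-2-kinase, which sets the level of the phosphofructokinase activator fructose-2,6-bisphosphate, did not move together. Pfkfb2, the isozyme known from heart, was called lower at all 4 times in CD4 cells. It stood at -2.29 to -1.13 (median -1.68) over the CD4 arrays at 0 h, and its young and old CD4 arrays read -3.12 and -3.56 at 4 h, -3.50 and -2.96 at 12 h, -4.26 and -3.29 at 24 h and -5.77 and -4.07 at 72 h, all below the 0 h arrays. The CD4 difference was -1.63 ± 0.34, adjusted p = 0.0011 at 4 h and -3.21 ± 0.34, adjusted p = 8.6e-07 at 72 h. In CD8 cells Pfkfb2 stood at -2.50 to -1.63 (median -2.02) and read -2.79 and -2.92 at 4 h, -3.53 and -2.43 at 12 h, -3.66 and -3.07 at 24 h and -4.45 and -4.07 at 72 h, with a 72 h difference of -2.16 ± 0.34, adjusted p = 0.0001, which normexp background correction turned to 0.23. Without the old 4 h array the CD4 value at 4 h was -0.96 (adjusted p = 0.13). The young CD4 arrays at 24 and 72 h and the old CD8 array at 72 h were not well above background for this probe. At each of these 3 times 1 of the 2 arrays was measured above background, so the size of these differences is uncertain. Of the other Pfkfb2 probes, one fell as well (-1.93 (adjusted p = 0.013) at 72 h in CD4 cells). Another read 1.23 (adjusted p = 0.018) at 24 h in CD4 cells, the opposite direction. The last was called at none of these times (0.51 (adjusted p = 0.62) at 72 h). Pfkfb3, the inducible isozyme with high kinase activity, was called higher at all 4 times in CD4 cells. Only the 4 h value (0.99 ± 0.24, adjusted p = 0.0043) has an array of each age, and there its other probes read -0.41 (adjusted p = 0.69) and -0.35 (adjusted p = 0.67). Its 72 h value was 2.35 ± 0.33, adjusted p = 4.2e-05, and in CD8 cells only the 72 h difference was called (1.03 ± 0.24, adjusted p = 0.0039). The 12 h value of Pfkfb3 in CD4 cells rests on the old array alone and those at 24 and 72 h on the young one alone, since the other spots were missing. Each of these tests takes its spread from other groups. The 24 h call in CD4 cells (1.04) changed sign when its probes were averaged, under normexp and in the authors' deposited table. Pfkfb1 fell at 4 h in both cell types (-1.33 and -0.84) and rose at 24 h in CD4 cells (1.53). Pfkfb4 fell at 4 h in CD4 cells (-1.04 ± 0.34, adjusted p = 0.025) and was called at no other time.

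The aldolases and triosephosphate isomerase, which make and interconvert the 3-carbon sugars, rose with a delay. Aldoc, an aldolase best known from brain, stood at -2.52 to -1.74 (median -2.28) over the CD4 arrays at 0 h. The young and old CD4 arrays of Aldoc then read -4.28 and -4.51 at 4 h, -0.47 and -2.60 at 12 h, 2.75 and 0.87 at 24 h and 4.09 and 4.89 at 72 h. Both 4 h arrays were below all 0 h arrays and both arrays at 24 and 72 h above them. The CD4 difference was -2.22 ± 0.66, adjusted p = 0.014 at 4 h and 6.66 ± 0.66, adjusted p = 3.9e-07 at 72 h. In CD8 cells Aldoc stood at -3.57 to -2.38 (median -2.93) and read -5.44 and -4.63 at 4 h, -2.63 and -2.84 at 12 h, 1.74 and -0.91 at 24 h and 3.30 and 1.28 at 72 h, a fall of the same kind at 4 h (-2.07 ± 0.66, adjusted p = 0.024) and a 72 h difference of 5.25 ± 0.66, adjusted p = 9.4e-06. The old CD4 array at 12 h and the young CD8 array at 4 h were not well above background. Tpi1, triosephosphate isomerase, stood at 1.45 to 2.61 (median 2.37) over the CD4 arrays at 0 h. It read 1.82 and 1.50 at 4 h, 6.55 and 4.86 at 12 h, 7.57 and 6.77 at 24 h on the young and old CD4 arrays and 7.40 on the young array at 72 h; the old spot was missing. The step lay between 4 and 12 h, and the 24 h difference was 4.98 ± 0.41, adjusted p = 5.5e-08. In CD8 cells Tpi1 stood at 2.61 to 3.51 (median 2.85) and read 3.56 and 2.70 at 4 h, 6.33 and 5.33 at 12 h, 7.25 and 6.65 at 24 h and 7.64 and 6.69 at 72 h, with a 72 h difference of 4.16 ± 0.41, adjusted p = 8.3e-07. Aldoa, the main aldolase of most cells, rose from 12 h in both, to 2.47 ± 0.26, adjusted p = 9.3e-07 in CD4 and 1.99 ± 0.26, adjusted p = 1.6e-05 in CD8 cells at 72 h.

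Gapdh, which oxidises glyceraldehyde-3-phosphate, was measured only by a weak probe listed under a locus number, and the gene has many near-identical pseudogenes, so its values are uncertain. That probe fell at 4 h (-1.54 in CD4 and -1.34 in CD8 cells) and was called higher at 72 h in CD4 cells (1.07 ± 0.40, adjusted p = 0.039), a value that was 0.14 without the old 72 h array (adjusted p = 0.87). Pgk1, phosphoglycerate kinase, the first ATP-forming step, stood at 4.56 to 5.0 (median 4.79) over the CD4 arrays at 0 h. Its young and old CD4 arrays read 5.85 and 6.37 at 4 h, 7.65 and 6.91 at 12 h, 7.67 and 7.21 at 24 h and 8.31 and 8.17 at 72 h, each above all 0 h arrays. The CD4 difference was 1.32 ± 0.34, adjusted p = 0.0052 at 4 h and 3.45 ± 0.34, adjusted p = 3.6e-07 at 72 h. In CD8 cells Pgk1 stood at 4.70 to 5.84 (median 5.01) and read 6.32 and 5.74 at 4 h, 7.45 and 6.92 at 12 h, 8.08 and 7.53 at 24 h and 8.90 and 7.78 at 72 h, with a 72 h difference of 3.15 ± 0.34, adjusted p = 1.7e-06; only at 4 h did the arrays overlap those at 0 h. Pgam1, the main phosphoglycerate mutase, rose at every time, from 1.82 ± 0.24, adjusted p = 9.4e-06 at 4 h to 3.02 ± 0.24, adjusted p = 3.1e-08 at 72 h in CD4 cells and from 1.39 ± 0.24, adjusted p = 0.0002 to 2.19 ± 0.24, adjusted p = 1.8e-06 in CD8 cells. Pgam2, the muscle isozyme, was called higher at all 4 times in CD8 cells (2.83 ± 0.44, adjusted p = 7.2e-05 at 24 h; without the young array the 12 h value fell to 1.06, adjusted p = 0.21) and at none in CD4 cells, where its 72 h difference was 1.01; the response difference between the cell types at 72 h missed the threshold (1.82 ± 0.63, adjusted p = 0.08). The summed level of 2 muscle markers, Ckm and Tnnt3, ranged from -2.97 to -1.83 on the CD8 arrays at 0 h and from -4.82 to -3.45 after stimulation; their part in the Pgam2 result was not tested. Bpgm, which makes the haemoglobin regulator 2,3-bisphosphoglycerate, fell at 4 h (-1.39 in CD4 and -1.32 in CD8 cells) and at 72 h (-1.05 ± 0.22, adjusted p = 0.0011 and -1.15 ± 0.22, adjusted p = 0.00071). Without the old 72 h array the CD4 value at 72 h was -0.54 (adjusted p = 0.12), while its other probe was called on all arrays (-1.15 (adjusted p = 0.0027)). The summed level of 5 erythroid markers also differed, from 0.45 to 1.93 at 0 h and from -1.21 to 0.32 after stimulation in CD4 cells, and from 0.65 to 1.86 and from -1.59 to 0.39 in CD8 cells; its part in the Bpgm result was not tested.

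All 3 enolases, which form phosphoenolpyruvate, rose at 24 h. Eno2, the isozyme known from neurons, stood at -4.35 to -2.34 (median -3.10) over the CD4 arrays at 0 h. Its young and old CD4 arrays read -3.18 and -3.80 at 4 h, -2.10 and -3.34 at 12 h, 0.07 and -1.31 at 24 h and 2.10 and 3.37 at 72 h, with the 72 h arrays far above the rest. The CD4 difference was 2.59 ± 0.80, adjusted p = 0.013 at 24 h and 5.94 ± 0.80, adjusted p = 1.1e-05 at 72 h. In CD8 cells Eno2 stood at -6.55 to -2.66 (median -4.01) and read -3.57 and -3.72 at 4 h, -2.43 and -3.34 at 12 h, -0.16 and -1.61 at 24 h and 2.32 and -0.93 at 72 h, a 72 h difference of 4.86 ± 0.80, adjusted p = 0.00014 with the young array well above the old. The lowest CD8 value at 0 h, a second 0 h CD8 array and the old CD4 array at 12 h were not well above background. Eno1, the common isozyme, stood at -0.78 to 1.37 (median 0.52) over the CD4 arrays at 0 h. It read -0.65 and 0.03 at 4 h, 3.40 and 1.47 at 12 h, 4.19 and 3.47 at 24 h and 4.46 and 4.70 at 72 h on the young and old CD4 arrays, and its 72 h difference was 4.06 ± 0.54, adjusted p = 9.5e-06. In CD8 cells Eno1 stood at -0.46 to 1.69 (median 1.1) and read -0.57 and -0.17 at 4 h, 2.59 and 3.17 at 12 h, 3.58 and 3.19 at 24 h and 3.93 and 3.23 at 72 h, with a 72 h difference of 2.68 ± 0.54, adjusted p = 0.00091. Eno1 at 4 h overlapped 0 h in both cell types and was not called. Eno3, the muscle isozyme, fell at 4 h in CD4 cells (-1.59), rose at 24 h there (1.43 ± 0.40, adjusted p = 0.0068; 0.89, adjusted p = 0.24, without the old array), and rose at 12, 24 and 72 h in CD8 cells (2.19 ± 0.40, adjusted p = 0.00032 at 24 h). Pkm, pyruvate kinase, rose from 12 h, to 2.76 ± 0.31, adjusted p = 1.2e-06 at 24 h in CD4 cells and 3.03 ± 0.31, adjusted p = 1.1e-06 at 72 h in CD8 cells.

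The 2 lactate transporters rose in a different order, and Slc16a3 had the largest difference of the 36 members. Slc16a3 (MCT4), the exporter of highly glycolytic cells, stood at -1.95 to -0.65 (median -1.79) over the CD4 arrays at 0 h. After stimulation it read -0.30 and -1.41 at 4 h, 3.39 and 1.1 at 12 h, 5.55 and 4.54 at 24 h and 6.16 and 6.58 at 72 h on the young and old CD4 arrays. They were above the 0 h arrays from 12 h and still higher at 24 and 72 h. The CD4 difference was 3.78 ± 0.55, adjusted p = 2.5e-05 at 12 h and 7.91 ± 0.55, adjusted p = 8.6e-09 at 72 h, a 240.0-fold level. In CD8 cells Slc16a3 stood at -1.26 to -0.49 (median -1.02) and read -1.27 and -1.14 at 4 h, 1.75 and -0.93 at 12 h, 4.87 and 4.21 at 24 h and 6.65 and 5.41 at 72 h. At 12 h the old CD8 array lay among the 0 h arrays and the young one above them, and the 72 h difference was 6.99 ± 0.55, adjusted p = 5.3e-08. Slc16a1 (MCT1), which carries lactate in either direction, was by contrast highest in mean at 4 h. It stood at 1.29 to 2.47 (median 1.85) over the CD4 arrays at 0 h and read 5.45 and 5.97 at 4 h, 4.98 and 5.10 at 12 h, 4.61 and 5.05 at 24 h and 4.66 and 3.82 at 72 h on the young and old arrays. The CD4 difference was 3.86 ± 0.28, adjusted p = 2e-08 at 4 h and 2.39 ± 0.28, adjusted p = 2.8e-06 at 72 h. In CD8 cells, where it stood at 3.05 to 3.39 (median 3.12) at 0 h, it read 5.42 and 4.85 at 4 h, 4.58 and 5.25 at 12 h, 4.40 and 4.74 at 24 h and 4.02 and 4.45 at 72 h, with differences of 1.97 ± 0.28, adjusted p = 3.8e-05 at 4 h and 1.07 ± 0.28, adjusted p = 0.0076 at 72 h. At 24 h in CD4 cells the brightest Slc16a1 probe gave 2.98 and its other probes -0.81 (adjusted p = 0.085) and 2.07 (adjusted p = 0.0033). By their brightest probes these transporters thus had their highest means over the 2 ages at opposite ends of the stimulated times in both cell types. For Slc16a1 in CD8 cells, however, the old array was higher at 12 h (5.25) than at 4 h (4.85). One of its other probes gave a smaller difference at 4 h (1.48) than at 12 h (1.90) there, and the other a larger one (2.09 and 1.57).

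**Figure D2:**
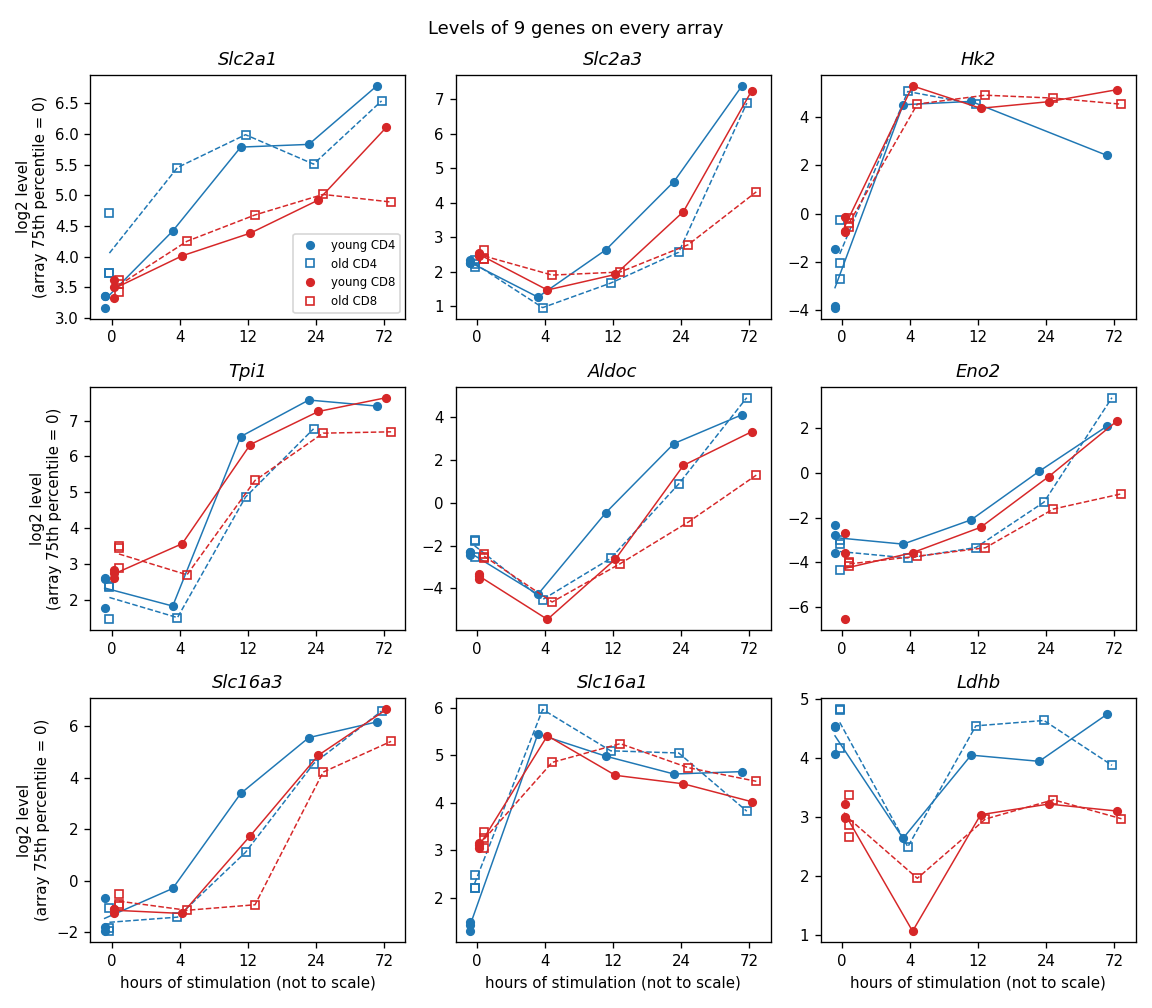
Level (log2 intensity minus the array's 75th percentile) against hours after stimulation (evenly spaced, not to scale) for 9 genes; blue is CD4, red CD8, filled circles with solid lines are young and open squares with dashed lines old cells, each point is an array and lines join group means. Slc16a1 and Hk2 step up by 4 h, Tpi1 by 12 h, and Aldoc, Eno2, Slc2a3 and Slc16a3 are highest at 72 h.

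Ldha, the lactate dehydrogenase subunit that favours lactate formation, gave different results by probe. Its brightest probe rose at 12, 24 and 72 h in CD8 cells (1.89 ± 0.34, adjusted p = 0.00041 at 72 h), and in CD4 cells at 4 h (1.12 ± 0.34, adjusted p = 0.017; 0.70, adjusted p = 0.35, without the old array), where the 24 h difference, from the young array alone, was -0.08 ± 0.47, adjusted p = 0.91 and the 72 h difference 0.23 ± 0.34, adjusted p = 0.64. Its other probe rose in CD4 cells as well, by 2.97 (adjusted p = 1.5e-07) at 24 h and 3.26 (adjusted p = 8e-08) at 72 h. Whether Ldha RNA rose in CD4 cells at those times therefore depends on the probe. Ldhb, the subunit that favours pyruvate formation, fell at 4 h in CD4 (-1.93 ± 0.29, adjusted p = 5.3e-05) and CD8 cells (-1.50 ± 0.29, adjusted p = 0.00073) and was called at no later time, where its arrays overlapped those at 0 h in both.

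Of the genes that set the fate of pyruvate, Pdk3 rose in both cell types from 12 h. Pdk1, Pdk2 and Pdk3 are kinases that switch pyruvate dehydrogenase off, and Pdha1 and Pdhb encode its E1 subunits. Pdk3 rose to 2.74 ± 0.45, adjusted p = 7.6e-05 at 24 h in CD4 cells, a value from the young array alone, since the old spot was missing, so that the spread comes from other groups, and to 1.37 ± 0.33, adjusted p = 0.0032 in CD8 cells. Its other probe gave 2.75 (adjusted p = 2.4e-08) at 24 h in CD4 cells. The 12 h call in CD4 cells became 0.65 (adjusted p = 0.17) without the young 12 h array. Pdk1, a known HIF-1 target, fell at 4 h in CD8 cells (-0.81 ± 0.29, adjusted p = 0.042), with -0.67 in CD4 cells not called. It rose by 72 h, by 1.45 ± 0.29, adjusted p = 0.00055 in CD4 and 1.05 ± 0.29, adjusted p = 0.0094 in CD8 cells. Pdk2 and Pdhb were called at no time, with differences from -0.84 to 0.83 for Pdk2 and from -0.52 to 0.52 for Pdhb. The brightest Pdha1 probe rose by 1.74 ± 0.24, adjusted p = 1.2e-05 at 12 h in CD4 and 0.91 ± 0.24, adjusted p = 0.0064 in CD8 cells and was called at 24 and 72 h as well. The other Pdha1 probe was called at none of these times: it read 0.32 (adjusted p = 0.37), 0.44 (adjusted p = 0.19) and -0.05 (adjusted p = 0.9) at 12, 24 and 72 h in CD4 cells. In CD8 cells it read -0.14 (adjusted p = 0.73), 0.12 (adjusted p = 0.78) and -0.07 (adjusted p = 0.88). Whether Pdha1 RNA rose therefore depends on the probe.

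The rise was not complete at 24 h for a few genes. From 24 to 72 h in CD4 cells 4 members rose and 1 fell of 35 tested (15.9% of all genes called, 7.14% higher and 8.71% lower, so the members' share was near the background). Slc2a3 rose by 3.54 ± 0.58, adjusted p = 0.00094, Eno2 by 3.35 ± 0.98, adjusted p = 0.027, Aldoc by 2.68 ± 0.81, adjusted p = 0.032 and Aldoa by 1.01 ± 0.32, adjusted p = 0.041, and Pfkfb1 fell (-1.38 ± 0.34, adjusted p = 0.011). The other Slc2a3 probes gave 4.28 (adjusted p = 0.018) and 0.50 (adjusted p = 0.79), and the other Aldoc probe 3.02 (adjusted p = 0.058). Quantile normalization gave 6 higher and 3 lower and median scaling 1 and 0. In CD8 cells Slc2a3 alone was called (2.51 ± 0.58, adjusted p = 0.048; 0.736% of all genes, 0.587% higher and 0.149% lower). Each of these compares 2 arrays with 2. The CD4 count fell to 1 without the old 24 h array and 2 without the old 72 h array, and was 10 without the young 72 h array. The CD8 call was lost without either 24 h array or the young 72 h array. Over the 5 times, the highest group mean lay at 72 h for 19 members in CD4 and 20 in CD8 cells, at 24 h for 7 in each, at 12 h for 2 in each, at 4 h for 4 and 3, and at 0 h for 4 in each. Hk2 had no value at 24 h in CD4 cells, and some other CD4 means rest on 1 array. Peak times over all genes were not counted, so these counts have no background beside them.

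Before stimulation the 2 cell types differed in 11 members, 8 higher and 3 lower in CD8 cells, or 30.6% of them beside 13.6% of all genes called (8.74% higher and 4.9% lower). The hexokinase genes Hk2 and Hk3 were 1.90 ± 0.51, adjusted p = 0.035 and 1.47 ± 0.33, adjusted p = 0.017 higher in CD8 cells. Slc16a1 was higher by 1.32 ± 0.11, adjusted p = 6e-05: its CD8 arrays read 3.05 to 3.39 (median 3.12) and its CD4 arrays 1.29 to 2.47 (median 1.85), without overlap. Tpi1 (0.80), Pgam1 (0.73), Pdk3 (0.67), Pdk2 (0.57) and Pfkfb1 (0.51) were also higher. Ldhb was lower in CD8 cells (-1.48 ± 0.18, adjusted p = 0.00061), at 2.67 to 3.38 (median 2.99) against 4.07 to 4.83 (median 4.54), again without overlap, as was Pfkfb4 (-1.37 ± 0.29, adjusted p = 0.013). Aldoc was the other lower gene (-0.79), with overlapping arrays and 0.22 (adjusted p = 0.83) by its other probe. The arrays also overlapped for Hk2, Hk3, Pdk2 and Tpi1.

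The slides bear on the 0 h comparison, since CD4 and CD8 arrays lie on different slides. Hk2 read -1.47 and -0.25 on the third young and old CD4 arrays, which share a slide and a scanner model of their own at 0 h, and between -3.89 and -2.06 on the other 4. The summed myeloid marker level was 7.92 and 7.89 on the same pair and 1.48 to 3.73 on the other 4; its part in the Hk2 result was not tested. Hk3 read -0.89 to -0.58 on the old CD8 arrays and -2.64 to -2.36 on the young ones, and -3.65 to -1.63 (median -3.35) over the CD4 arrays. In place of 11, 2 members were called with slide as a random block and 5 under median scaling (3 higher and 2 lower). Without any single 0 h array other than the third young CD4 and the third old CD8 array, 6 or 7 were called.

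Between ages at 0 h, Slc16a1 and Pdk1 were higher in old CD4 cells, 2 of 36 members beside 1.73% of all genes called (1.21% higher and 0.52% lower). Slc16a1 read 1.29, 1.49 and 1.42 on the young and 2.21, 2.21 and 2.47 on the old CD4 arrays. All old arrays were above all young ones, and the difference was 0.90 ± 0.16, adjusted p = 0.028 (n = 3 and 3). Pdk1 read 1.03, 1.14 and 1.13 on the young and 1.85, 1.86 and 2.06 on the old CD4 arrays. These did not overlap either, and the difference was 0.82 ± 0.15, adjusted p = 0.032. Within the slide that holds 2 arrays of each age the old arrays were 0.82 higher for Slc16a1 and 0.77 for Pdk1, and within the slide with 1 of each they were 1.05 and 0.93 higher. With the replicate number as a block neither was called (Slc16a1 adjusted p = 0.067, Pdk1 0.065). Median scaling, no filter on dim genes and averaged probes each gave 0 called members. With slide as a fixed block 8 members were called. Either gene's call was lost without the old or the young CD4 array 1 or 2. The other probes of these genes were not called, with differences of 1.03 (adjusted p = 0.076) and 0.58 (adjusted p = 0.55) for Slc16a1 and 0.15 (adjusted p = 0.71) for Pdk1. B cell markers moved with age in the same samples: 4 of 8 were called higher in old CD4 cells. Their summed level at 0 h was 3.105 to 3.109 on the old and 0.20 to 1.69 on the young CD4 arrays, without overlap. The part of these markers in the result was not tested.

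**Figure D3:**
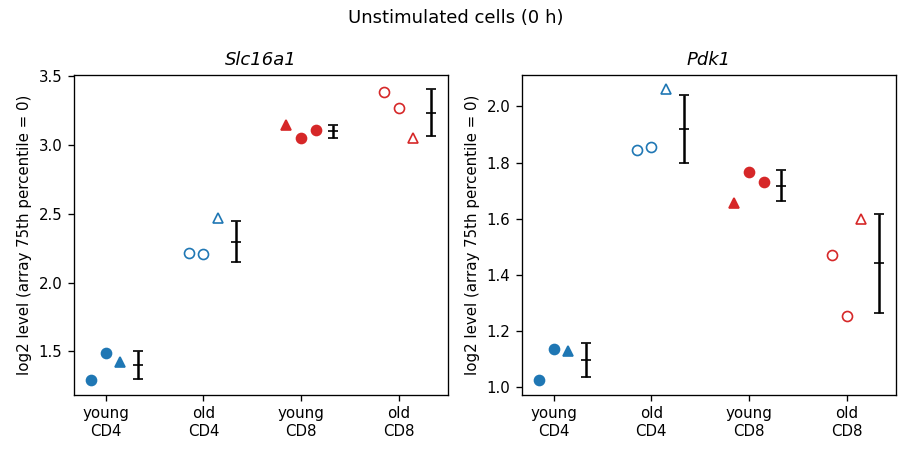
Level (log2 intensity minus the array's 75th percentile) of Slc16a1 and Pdk1 on each 0 h array of young and old CD4 and CD8 cells; circles are arrays of the slides that hold 4 such arrays, triangles those of slides that hold 2, and bars give mean ± SD (n = 3). The old CD4 arrays lie above the young CD4 arrays for both genes, and the CD8 arrays of the 2 ages overlap for Slc16a1.

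In CD8 cells at 0 h no member was called between ages by limma (2.21% of all genes called, 1.69% higher and 0.52% lower; 5 members had an unadjusted p under 0.05). Slc16a1 read 3.14, 3.05 and 3.11 on the young and 3.39, 3.27 and 3.05 on the old CD8 arrays. Pdk1 read 1.66, 1.77 and 1.73 on the young and 1.47, 1.25 and 1.60 on the old CD8 arrays, the old ones lower. Tested directly by limma, the age difference in CD8 minus that in CD4 cells was called for no member (0.0514% of all genes called, 0.0514% higher and 0% lower; 5 members had an unadjusted p under 0.05). It was -1.10 ± 0.22, adjusted p = 0.15 for Pdk1 and -0.76 ± 0.22, adjusted p = 0.26 for Slc16a1.

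After stimulation no member was called between ages over the 4 times as a whole. In CD4 cells 0 members were called by limma (0.113% of all genes; 2 with an unadjusted p under 0.05) and in CD8 cells also 0 (0.412% of all genes; 4 with an unadjusted p under 0.05). The age difference after stimulation minus that at 0 h was likewise called for 0 members in CD4 (0% of all genes; 1 with an unadjusted p under 0.05) and CD8 cells (0.0103% of all genes; 8). Single times have 1 array per age and allow no test. At 72 h in CD8 cells 27 of 36 members read lower on the old array, with a median of -0.62 beside 0.08 over all genes, of which 45.9% read lower. Eno2 was the lowest at -3.25: its young array read 2.32 and its old one -0.93. Slc2a3 read 7.24 and 4.32 and Aldoc 3.30 and 1.28 on the same 2 arrays. In CD4 cells the members' median was -0.60 at 12 h, beside 0.28 over all genes, and 0.11 at 72 h, beside 0.01. The old CD8 array at 72 h had 17825 probes well above background and the young one 23551. For the CD4 arrays at 12 h these numbers were 16972 and 22237. The part of this imbalance in the age differences was not tested.

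**Figure D4:**
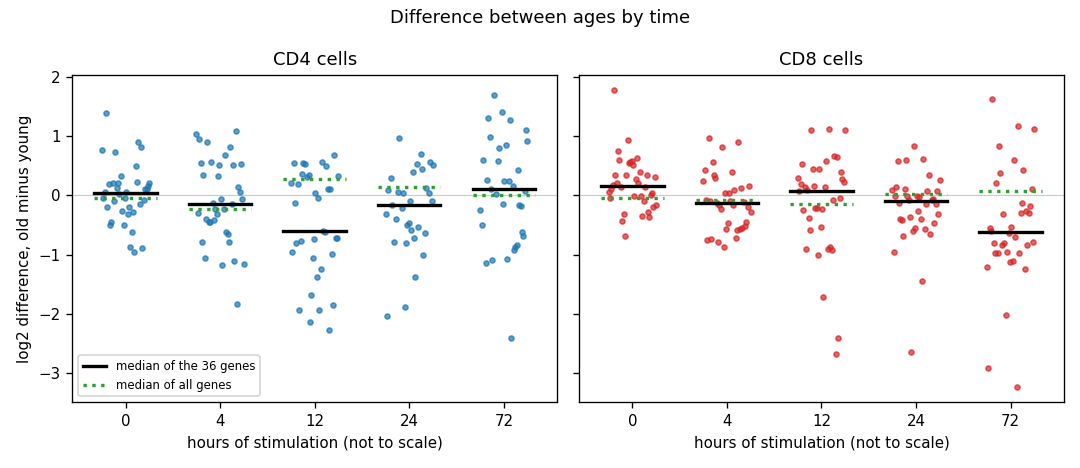
Old minus young level (log2) of each of the 36 genes (points) at 0, 4, 12, 24 and 72 h in CD4 and CD8 cells; black bars give the members' medians and green dotted bars those of all genes. The members' median is lowest at 12 h in CD4 cells (-0.60) and at 72 h in CD8 cells (-0.62), each from 1 array per age. In both pairs the old array had fewer probes well above background.

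The size of the response differed between cell types for few members. At 4 h no member was called by limma (0.0617% of all genes, 0.0206% higher and 0.0412% lower; 3 with an unadjusted p under 0.05), at 12 h 1 (1.24% of all genes, 0.465% higher and 0.78% lower), at 24 h 2 of 35 (4.83% of all genes, 1.95% higher and 2.88% lower) and at 72 h 5 (8.22% of all genes, 3.18% higher and 5.03% lower). These were 2.78%, 5.71% and 13.9% of the members at 12, 24 and 72 h. The 12 h share is a single gene, and the 24 h share was near the background. Hk1 rose less in CD8 than in CD4 cells at 12 h (-1.40 ± 0.32, adjusted p = 0.037), 24 h (-1.42 ± 0.32, adjusted p = 0.019) and 72 h (-1.86 ± 0.32, adjusted p = 0.0021). Slc16a1 rose less in CD8 cells at 24 h (-1.58 ± 0.40, adjusted p = 0.032) and 72 h (-1.32 ± 0.40, adjusted p = 0.049). It stood higher in CD8 cells at 0 h, and its 72 h arrays read 4.66 and 3.82 in CD4 and 4.02 and 4.45 in CD8 cells, so its levels overlapped by then. Of the other Hk1 probes one read 0.59 (adjusted p = 0.56) at 12 h and another 1.19 (adjusted p = 0.66) at 24 h, both above 0. One was called lower at 72 h (-2.08 (adjusted p = 0.032)). Another Slc16a1 probe read 2.27 (adjusted p = 0.015) at 24 h, the opposite direction. At 72 h the response was also smaller in CD8 cells for Pdk3 (-1.53 ± 0.46, adjusted p = 0.049) and Pgm1 (-1.27 ± 0.38, adjusted p = 0.048). Ldha had a larger one (1.67 ± 0.48, adjusted p = 0.041), but -0.53 (adjusted p = 0.47) by its other probe. Median scaling, slide as a random block, and leaving out the slides that hold 4 arrays each gave 0 calls at 12, 24 and 72 h. Leaving out single arrays gave 0 to 2 calls at 12 h, 0 to 3 at 24 h and 1 to 6 at 72 h. The 24 h count was 0 without any of the 4 arrays of that time. The 12 h count was 0 without the old CD4 12 h array or any of 7 single 0 h arrays, and 2 without the old CD8 12 h array or the third old CD4 array at 0 h. The 72 h count was 1 without the old CD8 72 h array, 3 without the old CD4 72 h array, and 1 to 3 without any single 0 h array other than the third old CD8 array. Quantile normalization gave 1 higher and 1 lower at 12 h and 0 higher and 7 lower at 72 h.

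**Figure D5:**
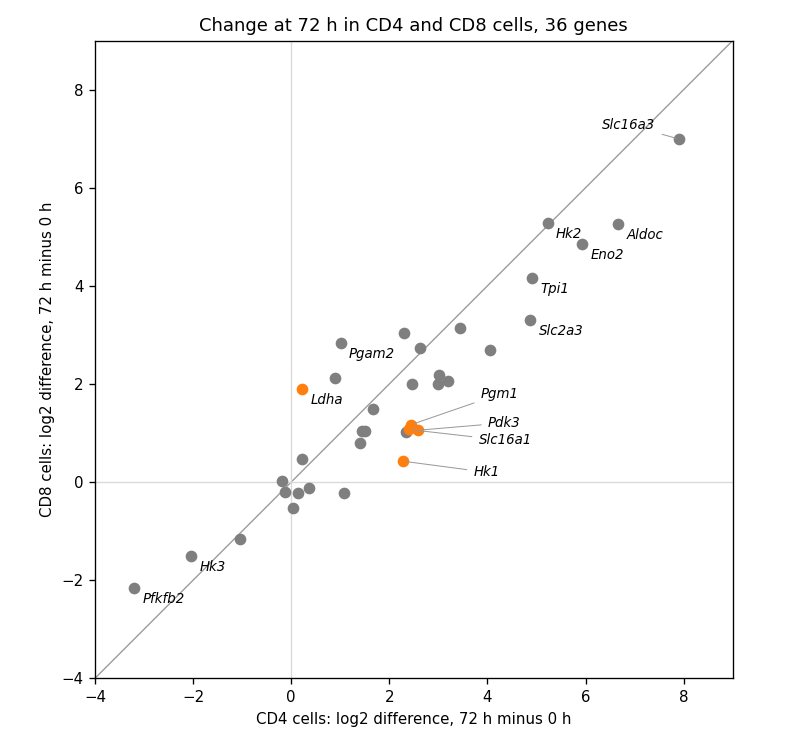
Log2 difference from 0 h at 72 h in CD4 cells (horizontal) against CD8 cells (vertical) for the 36 genes; the diagonal marks equal differences, and orange marks the 5 genes whose difference between cell types was called. Hk1, Slc16a1, Pdk3 and Pgm1 lie below the diagonal and Ldha above it, while Slc16a3 has the largest difference in both.

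Genes around the pathway give its setting, with counts to be read beside the background shares given above for each time. Of 16 regulators and sensors, the numbers called higher and lower were 5 and 1 at 4 h, 7 and 1 at 12 h, 6 and 2 at 24 h and 6 and 2 at 72 h in CD4 cells, and 3 and 1, 6 and 2, 5 and 2 and 5 and 2 in CD8 cells. Irf4, a transcription factor of T cell receptor signalling, was 7.92 higher at 4 h in CD4 and 7.96 in CD8 cells. Egln3, a HIF prolyl hydroxylase, rose late, by 8.30 and 5.09 at 72 h, as did Bnip3, a mitophagy receptor and HIF target (5.84 and 4.76). Txnip, which restrains glucose uptake, fell at all 4 times (-4.35 in CD4 and -3.85 in CD8 cells at 24 h). Of 6 pentose phosphate genes, 1, 3, 3 and 2 were called higher at the 4 times in CD4 cells, with 2 lower at 72 h, and 1, 4, 3 and 1 higher in CD8 cells. All 6 genes of the serine branch, which draws 3-phosphoglycerate into serine, glycine and folate-bound carbon, were called higher at every time in both cell types. Shmt1, a serine hydroxymethyltransferase, was 5.51 higher at 24 h in CD4 and 3.60 in CD8 cells, and Psat1, phosphoserine aminotransferase, 4.74 and 4.06 at 12 h.

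The entry of pyruvate into mitochondria was represented by 10 genes, of which 2, 5, 4 and 5 were called higher in CD4 cells at 4, 12, 24 and 72 h and 0, 1, 1 and 2 lower; in CD8 cells 2, 4, 3 and 2 were higher and 0, 1, 0 and 0 lower. Of 4 gluconeogenesis genes only Pck2, which makes phosphoenolpyruvate in mitochondria, was called higher, at every time in both cell types, by up to 4.64. Of 11 genes of glycogen and other sugars (10 tested at 24 and 72 h in CD4 cells), 1, 4, 4 and 5 were called higher and 2, 1, 1 and 0 lower in CD4 cells, and 1, 3, 3 and 4 higher and 2, 3, 1 and 1 lower in CD8 cells. Galk1, galactokinase, was called higher at every time (3.28 at 72 h in CD4 cells), Gys1, glycogen synthase, was 3.46 higher at 72 h in CD4 cells, and Khk, ketohexokinase, fell at 4 h (-2.83 in CD4 and -2.65 in CD8 cells). Of 5 other glucose transporter genes, 1, 1, 1 and 2 were called higher and 2, 1, 0 and 0 lower in CD4 cells, and 1, 0, 1 and 2 higher and 2, 1, 0 and 0 lower in CD8 cells. Slc2a6 (GLUT6) was 4.97 higher at 24 h in CD4 cells and Slc2a9, a urate transporter, differed by -3.90 at 12 h in CD8 cells. Of 6 other isozymes and transporters, 0, 1, 2 and 1 were called higher and 1, 2, 2 and 1 lower in CD4 cells, and 0, 0, 1 and 1 higher and 0, 2, 0 and 1 lower in CD8 cells. Bsg, the chaperone that brings MCT1 and MCT4 to the cell surface, was 3.49 higher at 72 h in CD4 and 1.56 in CD8 cells. Between ages at 0 h, 2 genes of these lists were called, both lower in old CD8 cells: Egln3 (-1.56), a HIF prolyl hydroxylase, and Slc16a7 (-1.50), the monocarboxylate transporter MCT2. They were 1 of 16 regulators and sensors and 1 of 6 other isozymes and transporters. Beside them 2.21% of all genes were called in CD8 cells (0.52% lower). In CD4 cells no gene of these lists was called, beside 1.73% of all genes.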

How the data were processed

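RNA of 28 samples was hybridised to 1-colour Agilent arrays, 1 array per sample. The labels name Agilent Feature Extraction as the tool, and versions 10.1.1.1 (18 arrays) and 9.5.1.1 (10) are given per the file headers. Those 10 arrays, all on scanner model G2505B, are the stimulated CD4 arrays and the third 0 h CD4 array of each age. The other 18, on model G2505C, are the remaining 0 h CD4 arrays and all CD8 arrays. The deposited scanner files hold the processed spot intensity, already background-corrected by that tool. The authors' deposited value table holds log2 values of the same arrays, centred in a way not given in the sources used here; 14 of its 28 columns equal their own scanner file within a spread (SD of the log2 difference over probes) under 0.05. The 8 stimulated CD4 columns have their own file as the nearest but with a spread of 0.646 to 0.706. Another 6 CD8 columns equal, within the same tolerance, the file of another stimulated time. The scanner files' labels were followed, and for all 8 stimulated CD8 arrays the CD4 time with the highest correlation was the labelled one.

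Levels were computed here as log2 intensity minus the 75th percentile of the array, with no pseudocount. Spots marked as outliers were left out and repeat spots averaged. Of 41174 probes, 22951 were named by accession, 295 by gene number, 6658 by symbol, 3109 by an older symbol through RefSeq (GRCm38.p6), and 8161 kept the file's name; the brightest probe well above background on at least 3 arrays stood for its gene. Differences were tested with limma 3.58.1 (lmFit and eBayes) in R 4.3.3 in 22 comparisons, with Benjamini-Hochberg adjusted p over all genes and a threshold of 0.05; 0 h comparisons used the 12 arrays at 0 h, the age comparisons after stimulation the 16 stimulated arrays, and the others all 28. The number of arrays limits the precision. The fits were also run on simulated data with independent noise and no slide effects, so that run does not bear on the slides. Figures were drawn with matplotlib 3.10.9.

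Arrays of the same replicate number at 0 h deviated together in CD4 cells (correlations of 0.55, 0.49 and 0.69 between the ages), where number and slide coincide in part, and did not in CD8 cells (-0.24, 0.09 and -0.41). Whatever their number, pairs that share a slide gave 0.45 to 0.69 in CD4 and -0.01 to 0.34 in CD8 cells. Pairs on different slides gave -0.62 to -0.54 and -0.41 to -0.04. The members, the related lists and the alternatives were chosen with earlier results of these data known. All 36 members are accounted for; the text gives values in every group for the 12 with the largest difference from 0 h, on every array for those called between ages, and up to 4 genes of each related list by size of difference. Alternatives were background correction (normexp, which used the median spot signal since the mean signal is not in every file), scaling, the filter, averaged probes, array weights, replicate and slide blocks, the authors' table and leaving out each array.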

Additional observations from a re-analysis of the deposited data

Results flagged for a closer look

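These genes are set apart because their response to stimulation differed between CD8 and CD4 cells in a test of the difference itself (limma, Benjamini-Hochberg adjusted p under 0.05). Values are the log2 difference from 0 h in CD8 cells minus that in CD4 cells. Of the members 2.78%, 5.71% and 13.9% were called at 12, 24 and 72 h, beside 1.24%, 4.83% and 8.22% of all genes. The share at 24 h was thus near the background. Hk1, the constitutive hexokinase, gave -1.40 at 12 h, -1.42 at 24 h and -1.86 at 72 h. Slc16a1, the lactate transporter MCT1, gave -1.58 at 24 h and -1.32 at 72 h. At 72 h Pdk3, a pyruvate dehydrogenase kinase, gave -1.53, Pgm1, a phosphoglucomutase, -1.27 and Ldha, a lactate dehydrogenase subunit, 1.67. By these probes the response was smaller in CD8 cells for 4 of the genes and larger for Ldha, but other probes differed: the other Ldha probe gave -0.53 at 72 h, another Slc16a1 probe 2.27 at 24 h (adjusted p = 0.015) and another Hk1 probe 0.59 at 12 h. Median scaling and slide as a random block left 0 calls at 12, 24 and 72 h. Each stimulated time has slides of its own, so these differences cannot be told apart from slide differences. The stimulated CD4 arrays were also read on another scanner model and software version than the CD8 arrays.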

How the results depend on the processing

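Counts are members called, and under each alternative the counts not given here stayed within 1.5 times the values in the report. Leaving out single arrays gave 0 to 2 for age in CD4 cells at 0 h, 6 to 11 for CD8 against CD4 cells at 0 h, 7 to 18, 18 to 21, 19 to 25 and 24 to 27 for CD4 cells at 4, 12, 24 and 72 h, 4 to 13, 13 to 18, 15 to 26 and 19 to 28 for CD8 cells, 1 to 10 and 0 to 1 for 72 against 24 h in CD4 and CD8 cells, 0 to 2, 0 to 3 and 1 to 6 for the response difference at 12, 24 and 72 h, and 0 for the others. The replicate block gave 0 for age in CD4 cells at 0 h. Slide as a fixed block gave 8 for age in CD4 cells, 7 for age in CD8 cells and 9 for their difference at 0 h. Slide as a random block gave 2 for CD8 against CD4 cells, 7 and 5 at 4 h in CD4 and CD8 cells, 1 and 0 for 72 against 24 h, and 0, 0 and 0 for the response difference at 12, 24 and 72 h. Median scaling gave 0 for age in CD4 cells, 5 for CD8 against CD4 cells, 7 at 4 h in CD8 cells, 1 and 0 for 72 against 24 h and 0, 0 and 0 for the response difference. Quantile normalization gave 1 for age in CD8 cells, 9 and 0 for 72 against 24 h and 2 for the response difference at 12 h. Without a filter on dim genes the values were 0 for age in CD4 cells, 6 for CD8 against CD4 cells, 0 for CD8 72 against 24 h, and 0, 1 and 1 for the response difference. Averaged probes gave 0 for age in CD4 cells, 0 for CD8 72 against 24 h, and 0, 1 and 1 for the response difference. Normexp gave 1 for age in CD8 cells, 7 at 4 h and 5 for 72 against 24 h in CD8 cells, and 0 and 1 for the response difference at 12 and 24 h; it reversed Hk3 at 12 h (0.0720) and 72 h (0.0762) in CD4 cells and at 72 h in CD8 cells (0.11), Pfkfb2 at 72 h in CD8 cells (0.23) and Pfkfb3 at 24 h in CD4 cells (-0.43). Pfkfb3 at 24 h in CD4 cells was also reversed with averaged probes (-0.14) and in the authors' table (-0.65), as was Hk1 at 4 h in CD4 cells in that table (-0.0405); the table gave 3 for CD4 72 against 24 h, 0 for the response difference at 72 h and 1 for the change of the age difference in CD8 cells. Array weights gave 15 and 21 for age in CD4 and CD8 cells, 20 for the difference between these, 28 for CD8 against CD4 cells, 21 at 4 h in CD8 cells, 1 for CD4 72 against 24 h, 1, 0, 6 and 1 for the response difference at 4, 12, 24 and 72 h, 5 for age in stimulated CD8 cells and 12 for the change of the age difference there; their estimation did not fully converge. Among alternatives chosen after seeing the data, each cell type fitted alone gave 3 and 0 for 72 against 24 h, keeping outlier spots gave 0 for CD8 72 against 24 h and 1 for the response difference at 72 h, and leaving out the slides with 4 arrays gave 10 and 6 at 4 h in CD4 and CD8 cells, 11 at 12 h in CD8 cells and 0, 0 and 0 for the response difference. The CD8 times of the authors' table gave 26 at 12 h and 12 at 24 h in CD8 cells and 7, 5 and 25 for the response difference at 4, 12 and 24 h; by construction they set another array in each place. With them Aldoc (-2.07), Eno1 (-1.27), Eno3 (-1.02), Gpi1 (-0.58), Pdha1 (-0.30), Pdk1 (-0.81), Pdk3 (-0.10), Pfkm (-1.32), Pgm1 (-0.64) and Slc16a3 (-0.24) were reversed at 24 h, and Aldoc (0.22), Pdk1 (0.39) and Pfkm (0.83) at 4 h in CD8 cells. For the other alternatives the cause was not tested. Over all settings 3244 values of single members kept direction and call, 633 lost the call and 21 reversed. Weak signal limits Pdk2, Hk3, Pgam2, Pfkfb2, Eno2 and Aldoc, which were well above background on 23, 24, 24, 25, 25 and 26 of the 28 arrays. Median scaling moved the median of all genes to 0.40 at 12 h in CD4 cells and to 0.33 and 0.29 at 24 h in CD4 and CD8 cells.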
